A study of Mus musculus with 14 samples.

Results

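The cerebral cortex of mouse embryos carrying floxed Sbno1 and floxed Trp53 together with the Emx1-Cre driver (double conditional knockout, dcKO) was compared with that of embryos of the floxed-allele group (ff) at embryonic day 18.5 (E18.5). The 4 dcKO and 4 ff libraries were chosen by the genotype in their column names and are 8 of the 14 libraries of the series; the other 6, from E12.5 telencephalon, are used here only for a test of the difference between stages. The labels give the ff group no driver. No group carried the driver alone or lacked only 1 of the 2 genes, so effects of the driver, of the Sbno1 deletion and of the Trp53 deletion cannot be told apart. Sex, strain, pooling and whether each library came from a separate embryo are not stated, so p-values measure the spread between these samples, which may be partly technical.

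Sbno1 encodes a nuclear helicase-like protein, and Trp53 encodes p53, a transcription factor that arrests damaged cells or directs them to apoptosis. Emx1 is a homeobox gene of the dorsal telencephalon, and Cre placed under its control recombines floxed alleles in the progenitors of the cortex and hippocampus and in their descendants: radial glia, intermediate progenitors, glutamatergic projection neurons and later astrocytes. Inhibitory interneurons, microglia, blood vessels and meninges arise elsewhere and are not in that lineage. Projection neurons of the deep layers and the subplate are born before those of the upper layers, and by E18.5 most neurons have been made.

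The ff libraries held 54.4 to 82.0 M counts (M, 1e+06) and the dcKO libraries 5.98, 48.6, 53.9 and 48.9 M; libraries are named here by group and column number, and the shallow library is dcKO-2. Read from Xist and chromosome Y genes, all 4 dcKO libraries and ff-7 and ff-17 were male, and ff-8 and ff-18 were female. On the first principal component, which held 47.7% of the variance, dcKO-2 scored 93.6 and the other 7 libraries −32.0 to 5.61. The mitochondrial gene mt-Nd6, encoded on the strand opposite to the other mitochondrial protein genes, made up 18.77% of the counts of mt-Nd5 and mt-Nd6 in dcKO-2 and 0.445% to 1.22% in the other 7 libraries. In dcKO-2, 77 genes stood at 10 or more times their highest level elsewhere; 72 of the 73 with an annotation have an exon over an exon of a gene on the opposite strand, and 0 of the 77 passed the test. The description field of 6 of the 8 samples names a library of another group or stage, whereas every column matches an E18.5 title by number and genotype. The cortical neuron genes Neurod2 and Slc17a7 were at 211 to 314 and 47.4 to 89.9 CPM across the 8 libraries. CPM are counts per 1e+06 counts of the library, with each total scaled by its TMM normalization factor. That factor was 0.95 to 0.98 in ff and 1.02 to 1.05 in dcKO. The choroid plexus gene Ttr was at 0.944 CPM in dcKO-12 and 764 to 1733 CPM in the other 7. Levels in TPM (transcripts per 1e+06, which allows for gene length) were summed over 15 erythroid genes, 11 of them tested. The sums were 3699 to 6249 TPM in ff and 653 to 2826 TPM in dcKO, lowest in dcKO-2 and dcKO-12.

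Counts from exons that stay after recombination can keep a floxed gene's total from reporting its loss, and the floxed exons are not named in the labels. Sbno1 stood at 74.7, 74.6, 71.9 and 73.2 CPM in ff-7, ff-8, ff-17 and ff-18 and at 76.7, 67.0, 74.7 and 71.1 CPM in dcKO-2, dcKO-3, dcKO-12 and dcKO-13; per-library values keep this order throughout. The ranges overlapped, and the log2 fold change of −0.03 (SE 0.05) did not pass the test (adjusted p = 0.68, quasi-likelihood F-test of edgeR, adjusted by Benjamini-Hochberg over all genes tested; adjusted p-values below are of this kind unless another test is named). The Sbno1 total therefore gives no check of the group labels. On the log2(TPM + 1) scale its difference was 0.34, higher in dcKO, and passed (limma adjusted p = 0.041). TPM divides the count by the effective transcript length, for which Sbno1 had a shift of −0.24 in dcKO (described below). TPM is also not scaled by the TMM factor, so the 2 scales differ by construction. Trp53 was at 72.0, 73.9, 76.6 and 77.5 CPM in ff and 58.4, 72.7, 61.7 and 67.1 CPM in dcKO. It fell by 0.20 (SE 0.06, adjusted p = 0.032), and leaving out single libraries raised the adjusted p to as much as 0.09. Emx1, whose regulatory sequence drives Cre, was at 25.2, 26.3, 28.2 and 25.9 CPM in ff and 14.7, 16.3, 14.2 and 15.1 CPM in dcKO, with every dcKO library below every ff library; it fell by 0.81 (SE 0.07, adjusted p = 8.3e-06). Its relative Emx2 rose by 0.44, from 19.3 ± 1.06 to 26.2 ± 1.18 CPM (SD, n = 4 each), although an exon of Emx2 overlaps a gene on the other strand. Among the relatives of the deleted genes, Trp73 rose by 0.39 (adjusted p = 0.0021), while Sbno2 at 0.16 (adjusted p = 0.072) and Trp63 at −0.79 (adjusted p = 0.39) did not pass.

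Gm37415, an unclassified transcript whose exon overlaps the first exon of Sbno1 on the opposite strand in the GENCODE M21 annotation, was the neighbour of Sbno1 with the largest change. It was at 0.17, 0.31, 0.24 and 0.30 CPM in ff and 2.08, 1.29, 1.91 and 1.40 CPM in dcKO, from 10 to 24 counts a library in ff and 13 to 105 in dcKO. Every dcKO library exceeded every ff library, and the rise was 2.65 (SE 0.28, adjusted p = 3.3e-05); it was 2.49 to 2.77 with single libraries left out. At E12.5 the same gene was read in counts per 1e+06 of the library total without that scaling. It was at 2.03, 0.327 and 0.389 in the ff libraries 9, 4 and 7 and at 1.00, 1.13 and 1.21 in the dcKO libraries. The groups overlapped there: ff-9, a library of 4.92 M counts with 10 counts of this gene, lay above every dcKO library. The ff libraries 4 and 7 lay below every dcKO library. In ff-9 the mt-Nd6 share described above was 18.4%, against 0.394% to 0.974% in the other E12.5 libraries. At E18.5 dcKO-2, with a share of 18.77%, was the highest library for Gm37415. The part of opposite-strand reads in these values was not tested. The kit was strand-specific per the labels but the strand setting of the counting is not given in the sources used here, so reads of Gm37415 and Sbno1 cannot be separated with certainty. The 250 bases before the annotated start of Sbno1 are shown as the sequence just upstream of that first exon. They are on the minus strand of chr5:124425958-124426207 (RefSeq, GRCm38.p6), read 5′ to 3′ with no motif searched and so no capitals.
Sbno1: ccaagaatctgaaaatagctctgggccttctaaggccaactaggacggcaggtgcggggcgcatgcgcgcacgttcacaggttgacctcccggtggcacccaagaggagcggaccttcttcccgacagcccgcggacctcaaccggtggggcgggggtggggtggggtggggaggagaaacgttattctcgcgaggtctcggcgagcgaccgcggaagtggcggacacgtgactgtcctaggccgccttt

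The deposited counts divided by TPM are proportional to a gene's abundance-weighted effective transcript length, a readout of which transcripts were assigned that is separate from the level. For Sbno1 this length was 100%, 101%, 106% and 93.0% of the ff mean in ff and 73.5%, 87.3%, 86.0% and 92.8% in dcKO. Every dcKO library lay below every ff library, as in either direction for 17.4% of the 10466 genes measured, and the shift of −0.24 (SE 0.08) did not pass (limma adjusted p = 0.28). Without dcKO-2 it was −0.17. Trp53 and Emx1 had shifts of 0.02 and 0.00. In all, 4 of 10466 genes (0.0382%) passed at a shift of at least 0.1: Masp1, a lectin-pathway protease, at 117% of its ff length; Ccl27a, a chemokine gene with near-identical copies and therefore uncertain, at 108%; Dync1i1, a dynein intermediate chain of neurons, at 91.6%; and Zzz3, a histone acetyltransferase subunit, at 90.9%. Leaving out ff-7, ff-8, ff-17, dcKO-2, dcKO-3 or dcKO-13 each left 1 gene, and leaving out ff-18 gave 8. Dync1i1 also had a lower level, at 188, 168, 192 and 174 CPM in ff and 52.3, 70.7, 66.8 and 74.6 CPM in dcKO, a fall of 1.43.

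**Figure D1:**
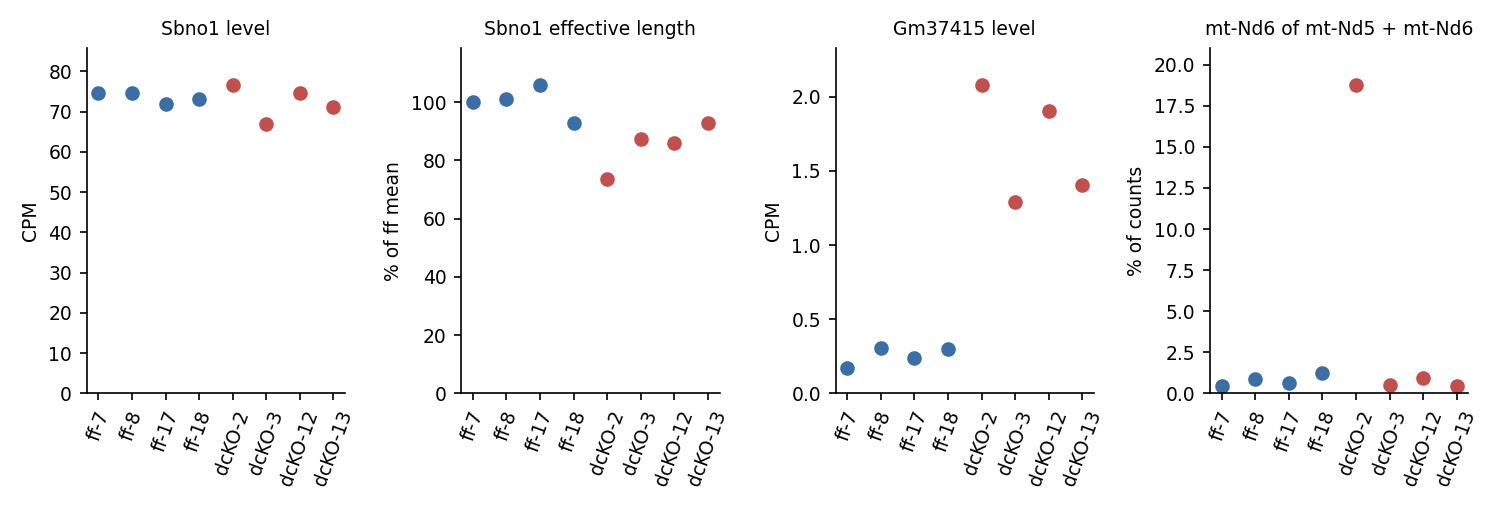
Sbno1 level (CPM), Sbno1 effective length (% of the ff mean), Gm37415 level (CPM) and mt-Nd6 as a percentage of mt-Nd5 plus mt-Nd6 counts in each library (ff blue, dcKO red). Sbno1 levels overlap between groups, Gm37415 lies at 1.29 to 2.08 CPM in dcKO against 0.17 to 0.31 CPM in ff, and the mt-Nd6 percentage is 18.77% in dcKO-2 alone.

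Genes next to Emx1, Sbno1 and Trp53 were read from the order of the GENCODE M21 annotation, 20 on each side. Around Emx1, 0 of 13 tested neighbours rose and 6 fell (46.2% called, against 32.2% of all genes tested), among them Rab11fip5, a Rab11 effector of endosomal recycling, by 0.52. Around Sbno1, 9 of 27 were called, 5 higher and 4 lower: Gm37415, Ddx55, Atp6v0a2 and Zfp664 were among those that rose, and Cdk2ap1, Rilpl2, Snrnp35 and Pitpnm2 fell. Cdk2ap1, a cell-cycle and chromatin regulator directly beside Sbno1, fell by 0.43. Around Trp53, Cd68 rose and Trappc1, Efnb3 and Eif4a1 fell among 25 tested (16.0%). By chromosome, the called share was 29.8% to 34.8%.

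Of 17974 genes tested, 5779 (32.2%) differed between dcKO and ff at an adjusted p under 0.05: 2801 were higher in dcKO (15.6%) and 2978 lower (16.6%), and the median log2 fold change of all tested genes was 0.03. Most differences were small, with a median size of 0.38 among the called genes. At 1.5-fold or more, 1512 genes (8.41%) remained, 1074 higher (5.98%) and 438 lower (2.44%), but among genes with 10 CPM or more and at least a 2-fold difference 25 were higher and 38 lower. The split between directions depended on the scale: 48.5% of calls were higher here and 76.7% with limma on log2(TPM + 1), which moved the median of all genes to 0.12. The share was 33.9% with an effective length offset, which also re-centred each library and moved that median to −0.04. Fold change and effective length were not related across genes (Spearman's rho 0.006, across genes, which are not independent replicates). In the authors' deposited table, 6315 of 19758 genes passed (32%); 5547 genes were called in both with the same direction and 0 with opposite directions, which is 96.0% of the calls here and 87.8% of theirs. The groups did not overlap in 5006 of the 5779 called genes and in 33.3% of all genes tested (16.1% with dcKO higher, 17.2% with dcKO lower). Without dcKO-2, 5723 genes were called and 5222 of the 5779 were among them; with male libraries alone 4523 were called, including 4123 of the 5779.

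**Figure D2:**
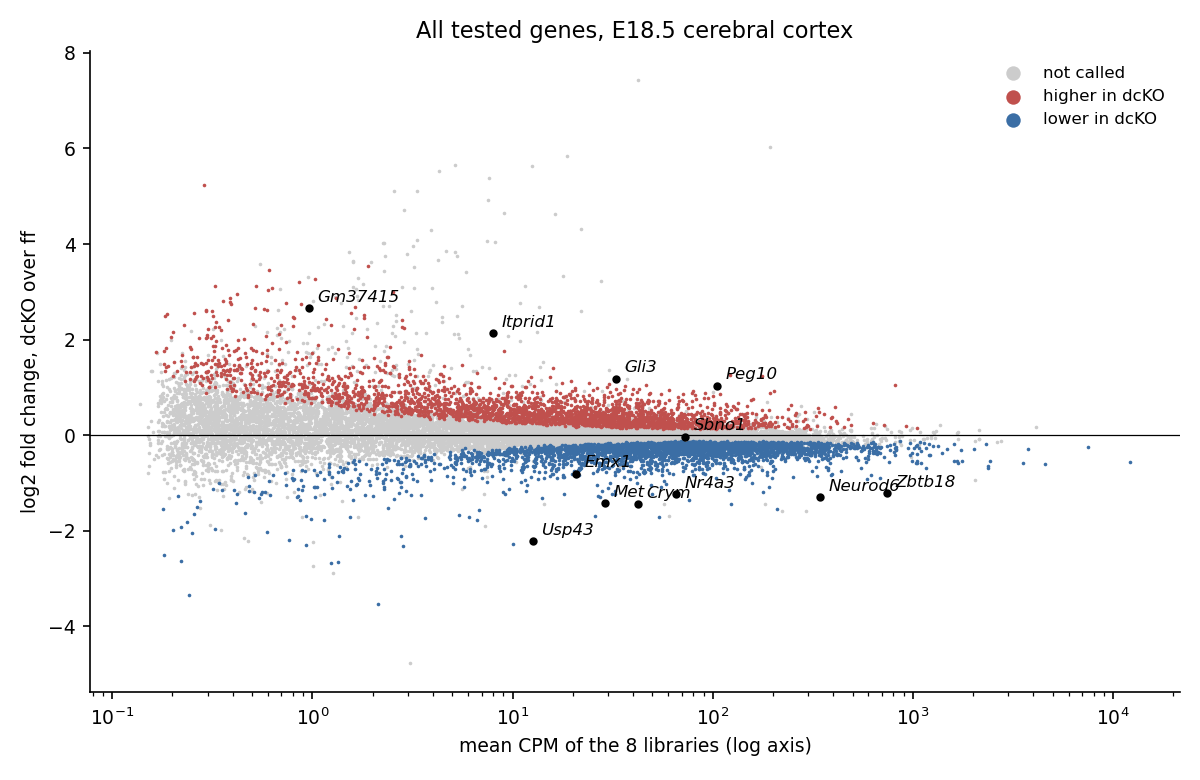
Log2 fold change of dcKO over ff against the mean CPM of the 8 libraries (log axis) for 17974 genes, with called genes in red (higher) and blue (lower) and 12 genes labelled. Sbno1 lies at −0.03 whereas Zbtb18 at −1.21 and Neurod6 at −1.29 are abundant genes far below 0; grey points at large positive values are genes that did not pass.

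Genes were read in 43 lists by role, and each list's counts stand beside the shares of all tested genes given above (15.6% higher, 16.6% lower, median 0.03). Several genes are in more than 1 list, such as Bcl11b and Foxp1 among deep-layer and striatal genes. With limma on log2(TPM + 1), the scale that moved the median of all genes upward, fewer members were lower: 14 pan-neuronal, 11 upper-layer, 4 subplate, 6 glutamate receptor, 3 ion channel, 6 axon guidance, 9 fatty acid, 6 oxidative phosphorylation, 14 ribosomal and 4 protocadherin genes, to be read beside the counts given below. On that scale 7 glutamate receptor, 6 ion channel and 9 axon guidance genes were higher. Among the genes named as called, the call was lost without ff-7 for Zfp664 and Mcm6, without dcKO-3 for Klf1, without dcKO-13 for Trp53inp1, Xrcc5 and Trappc1, and without ff-7, ff-8 or ff-17 for Lef1. It was lost with 4 to 7 of the 8 libraries, each left out alone, for Neurod4, Bdnf, Bcl2l11, Bax, Trp53, Chaf1b, Olig1, Snrnp35, Rad54l, Pitpnm2, Eif4a1, Cux2, Chaf1a, Pcna and Hopx.

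**Figure D3:**
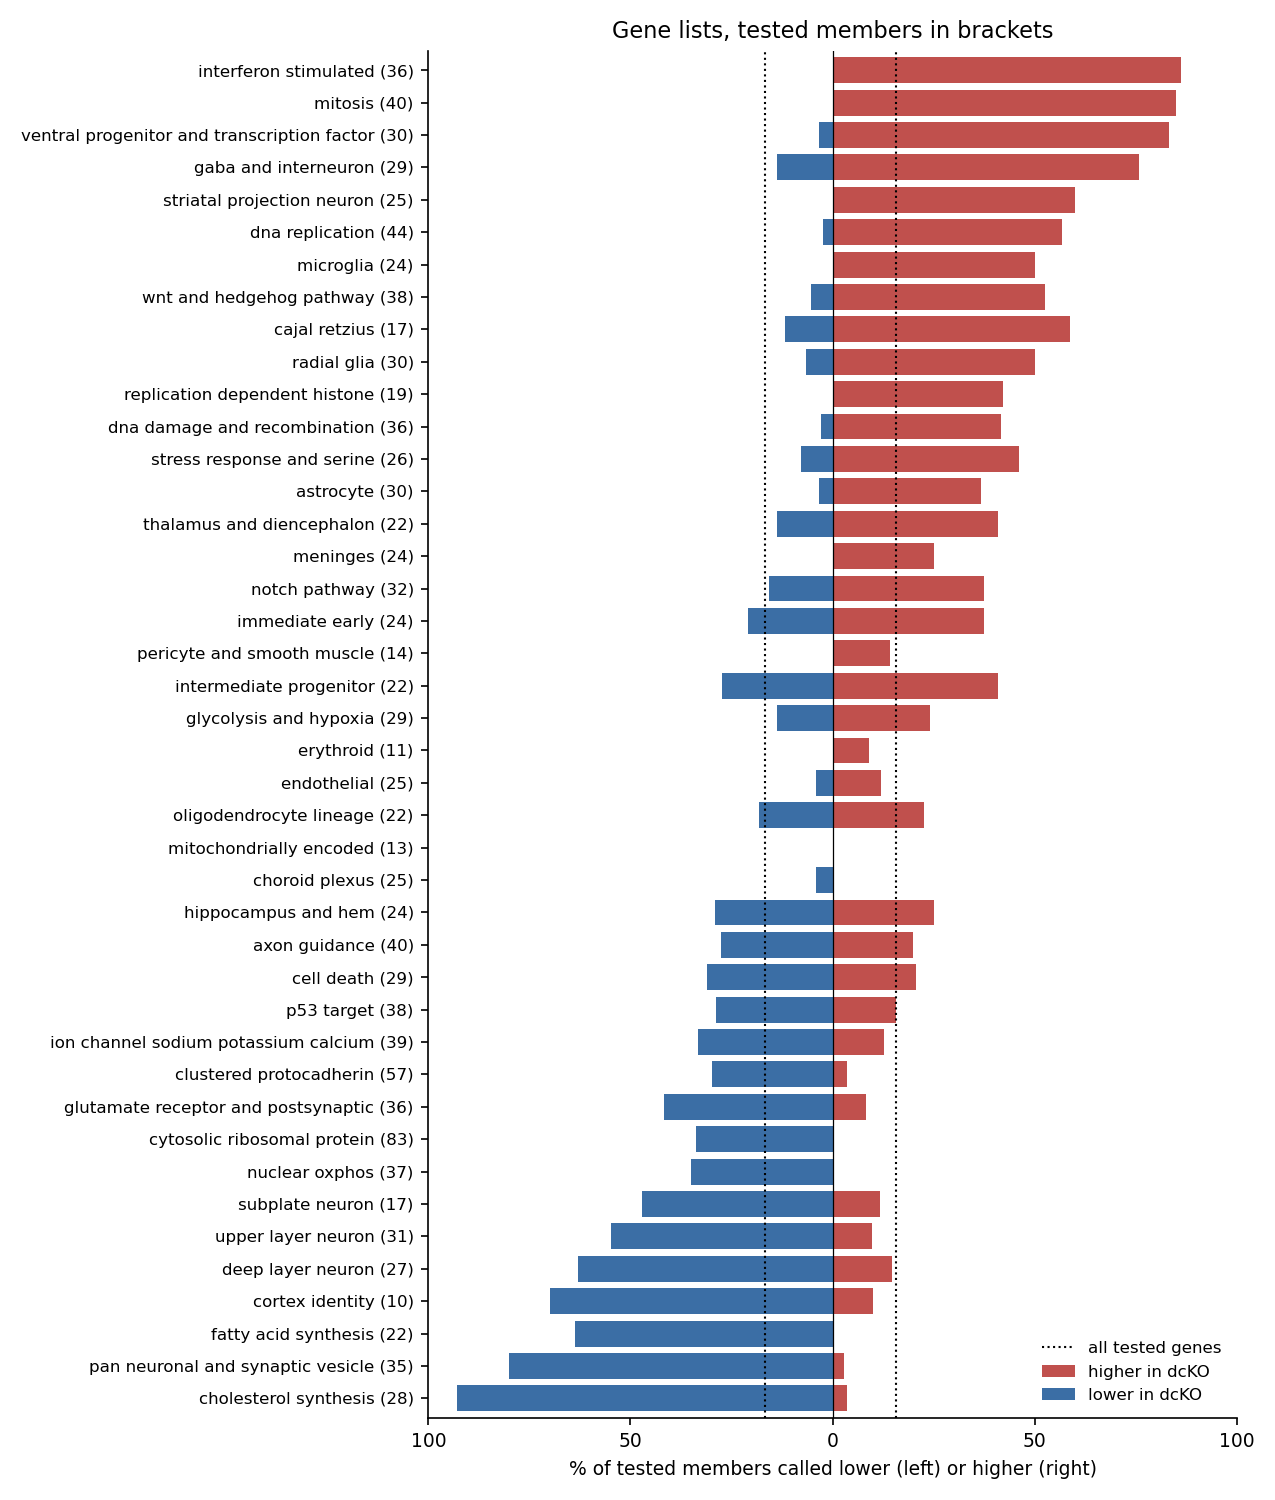
Percentage of each list's tested members (number in brackets) called lower (blue, left) or higher (red, right) in dcKO; dotted lines mark 16.6% and 15.6% of all tested genes. Cholesterol synthesis, pan-neuronal and cortical identity genes extend farthest to the left, and interferon-stimulated, mitosis and ventral genes farthest to the right.

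The genes of cortical projection neuron identity were lower in dcKO. Of 10 such genes, 7 fell and 1 rose, with a median of −0.43. Neurod6, a neuronal basic helix-loop-helix factor of this lineage, was at 478, 496, 501 and 482 CPM in ff and 186, 213, 191 and 209 CPM in dcKO, a fall of 1.29 (SE 0.06, adjusted p = 2e-07). No dcKO library came near the ff range. In bulk tissue, fewer cells of a type and less RNA of that type per cell cannot be told apart. Zbtb18, a zinc finger transcriptional repressor, was at 1081, 1056, 1029 and 987 CPM in ff and 403, 465, 464 and 456 CPM in dcKO (fall of 1.21). Its exons overlap a gene on the other strand. Met, a receptor tyrosine kinase of projection neuron axons, was at 44.2, 44.5, 43.3 and 36.9 CPM in ff and 14.9, 15.8, 16.4 and 15.7 CPM in dcKO (fall of 1.42). Mef2c, an activity-regulated factor, fell by 0.81, Neurod2 by 0.35, and the vesicular glutamate transporters Slc17a7 by 0.48 and Slc17a6 by 0.38.

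Among 31 upper-layer genes, 17 fell and 3 rose (median −0.28); 1 rose without ff-7, ff-8, ff-17 or dcKO-13 and with male libraries alone. Bhlhe22 (236, 274, 247 and 230 CPM in ff; 122, 99.9, 104 and 108 CPM in dcKO) fell by 1.19. Other members that fell were Dok5 by 1.71, Lpl by 1.00, Limch1 by 0.92, Pou3f2 by 0.69 and Rorb, a factor of layer 4, by 0.48. Cux2, a homeobox marker of upper layers, rose by 0.17 (adjusted p = 0.043) from 106 to 123 CPM in ff to 127 to 142 CPM in dcKO, a call lost when any library but dcKO-3 was left out and with male libraries alone. Its relative Cux1 at −0.06 (adjusted p = 0.47) did not pass. Of 27 deep-layer genes, 17 fell and 4 rose (median −0.39). Crym, a thyroid hormone binding protein of subcortical projection neurons, was at 67.6, 54.8, 71.7 and 55.5 CPM in ff and 19.7, 23.6, 25.6 and 21.7 CPM in dcKO, a fall of 1.44. Tbr1, which specifies corticothalamic neurons, was at 195, 253, 209 and 226 CPM in ff and 127, 158, 159 and 172 CPM in dcKO, a fall of 0.51 (SE 0.10, adjusted p = 0.0023). Fezf2, which specifies corticospinal neurons, fell by 0.41, Sox5 by 0.62, Ldb2 by 0.71 and Tle4 by 0.27. Bcl11b went the other way, from 311, 344, 264 and 294 CPM in ff to 437, 396, 441 and 386 CPM in dcKO, a rise of 0.45 (SE 0.08, adjusted p = 0.00098). Foxp2 also rose, by 0.66, from 56.5, 60.2, 52.0 and 60.3 CPM to 88.0, 84.6, 108 and 80.4 CPM; Foxp1 rose by 0.39 and the synaptotagmin Syt6 by 0.42. Bcl11b, Foxp1 and Foxp2 are also expressed in the striatum, whose other genes rose too (values below); the part of those cells in the result was not tested.

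Subplate genes mark the earliest neurons beneath the cortical plate; 8 of 17 fell and 2 rose (median −0.23). Nr4a2 fell by 1.22 and the secreted neurexin ligand Nxph3 by 1.11. Nr4a3, another nuclear receptor of that family, was at 95.4, 97.3, 91.6 and 82.2 CPM in ff and 41.5, 36.0, 39.8 and 40.0 CPM in dcKO, a fall of 1.23. Both Nr4a receptors are also immediate-early genes, a list with 9 of 24 members higher and 5 lower (median 0.30).

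**Figure D4:**
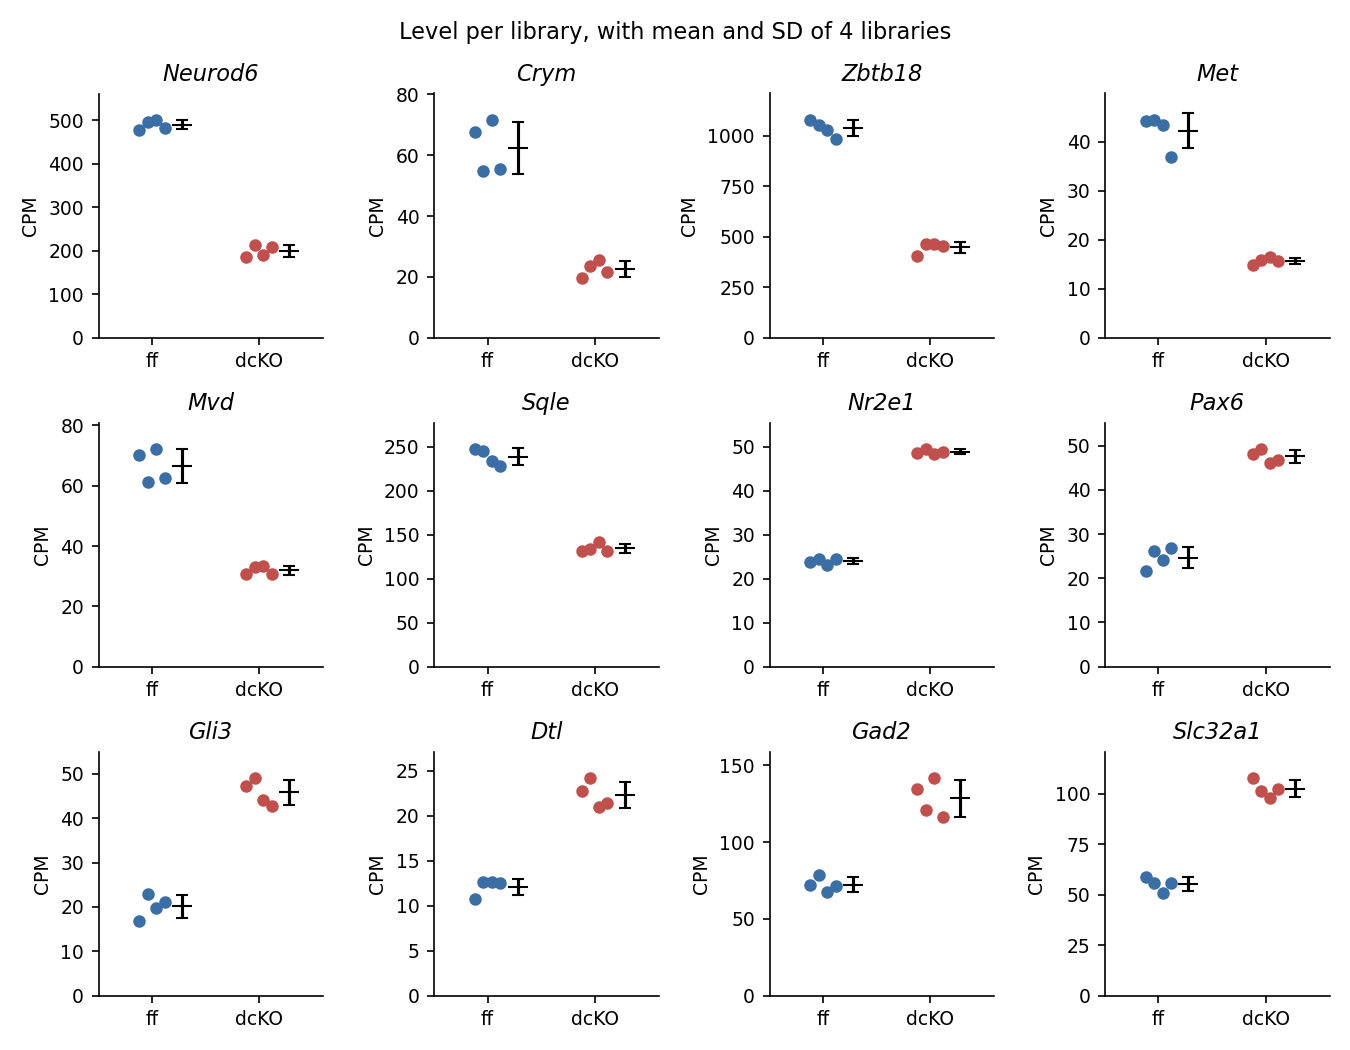
CPM of 12 genes in each library (ff blue, dcKO red) with the mean and SD of 4 libraries, axes starting at 0. In every panel the 4 dcKO libraries lie on one side of the 4 ff libraries, such as 186 to 213 against 478 to 501 CPM for Neurod6 and 48.2 to 49.5 against 23 to 24.5 CPM for Nr2e1.

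Genes shared by neurons of all kinds were lower as well. Of 35 pan-neuronal and synaptic vesicle genes, 28 fell and 1 rose (median −0.28). Stmn2, a microtubule regulator of growth cones, fell by 0.68, the neuronal tubulin Tubb3 by 0.63, Mapt, which encodes tau, by 0.54, the vesicle protein Sv2b by 0.67 and Snap25, a fusion SNARE, by 0.35. Synpr, a vesicle protein of subsets of neurons, rose by 0.52. Of 36 glutamate receptor and postsynaptic genes, 15 fell and 3 rose (median −0.15; 6 higher without dcKO-3): the calmodulin-binding Nrgn fell by 1.08, Camk2b by 0.69 and the NMDA receptor subunit Grin2b by 0.46, while Nrxn3 rose by 0.58 and Gria1 by 0.34. Of 39 sodium, potassium and calcium channel genes, 13 fell and 5 rose (median −0.12, and 0.02 on the log2(TPM + 1) scale). Scn2a, the sodium channel of immature axons, fell by 0.68, and Kcnc2, a potassium channel of fast-spiking interneurons, rose by 0.54. Clustered protocadherins, whose shared exons make the assignment of reads between members uncertain, had 17 of 57 lower and 2 higher (median −0.18); Pcdhgc3 fell by 0.40.

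Axon guidance genes moved in both directions, 8 of 40 higher and 11 lower (median −0.02). Among the ligands, Sema3c was at 120, 122, 103 and 92.2 CPM in ff and 39.9, 42.6, 44.4 and 43.0 CPM in dcKO, a fall of 1.36. Netrin 1 (Ntn1) was at 39.5, 41.7, 42.6 and 42.6 CPM in ff and 74.7, 82.6, 84.5 and 76.3 CPM in dcKO, a rise of 0.94. These ligands thus stood apart in opposite directions, with no overlap between groups in either. Among the receptors, the semaphorin co-receptor Nrp1 fell by 0.72, Unc5a by 0.64 and Plxna1 by 0.38, whereas Robo3, a receptor of crossing axons, rose by 0.98 from 0.826 to 1.32 CPM in ff to 1.53 to 2.28 CPM in dcKO. The median of this list was 0.06 on the log2(TPM + 1) scale, of the opposite sign, and the higher count was 4 without ff-7 or ff-17 and 5 without dcKO-12.

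Radial glia are the dividing progenitors that line the ventricle. Of 30 radial glia genes, 15 rose and 2 fell (median 0.34). Nr2e1, an orphan nuclear receptor that keeps neural stem cells undifferentiated, was at 23.9, 24.5, 23 and 24.5 CPM in ff and 48.7, 49.5, 48.2 and 48.9 CPM in dcKO, a rise of 1.03 (SE 0.05, adjusted p = 3.5e-07). Pax6 was at 21.7, 26.0, 24 and 26.9 CPM in ff and 48.2, 49.3, 46.1 and 46.7 CPM in dcKO, a rise of 0.95 (adjusted p = 3.4e-06). Both genes were tightly grouped within each genotype. Gli3, the hedgehog pathway repressor, was at 16.8, 22.9, 19.7 and 21 CPM in ff and 47.2, 49.1, 44.1 and 42.8 CPM in dcKO, a rise of 1.18. Sox9 rose by 0.86, Sox2 by 0.72, vimentin (Vim) by 0.49 and nestin (Nes) by 0.45. The members that fell were Tnc by 0.35 and Hopx by 0.30, both genes of the outer radial glia.

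Intermediate progenitors divide once or a few times to give neurons. Of 22 of their genes, 9 rose and 6 fell (median 0.01, and −0.07 with an effective length offset); 3 fell without dcKO-12. Tfap2c was at 8.38, 11, 8.44 and 8.86 CPM in ff and 24, 19.8, 20.7 and 21.9 CPM in dcKO, a rise of 1.22. Eomes, the defining T-box factor, was at 45.2, 54.7, 46.7 and 48.4 CPM in ff and 65.3, 60.8, 58.4 and 59.9 CPM in dcKO, a rise of 0.32 (SE 0.07, adjusted p = 0.003). The proneural factor Neurog2 rose by 0.47 and Neurog1 by 2.42 from a low base of 0.0691 to 0.153 CPM. Neurod1 and Neurod4, basic helix-loop-helix factors of the step toward neurons, fell by 0.87 and 0.90. Upstream members of the proneural series (Neurog1, Neurog2) were thus higher and later members (Neurod1, Neurod2, Neurod4, Neurod6) lower in dcKO.

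In the Notch pathway, which keeps progenitors undifferentiated, 12 of 32 genes rose and 5 fell (median 0.12). The receptor Notch1 was at 56.9, 72.4, 62.4 and 65.5 CPM in ff and 111, 118, 122 and 124 CPM in dcKO, a rise of 0.89. Notch2 rose by 0.65, the ligands Jag1 by 0.53 and Dll1 by 0.41, the glycosyltransferase Lfng by 0.69 and the target Hes1 by 0.77. Dtx4, an E3 ligase of the Deltex family, was at 178, 154, 183 and 152 CPM in ff and 67.2, 72.4, 78.3 and 80.1 CPM in dcKO, a fall of 1.15. Of 38 Wnt and hedgehog genes, 20 rose and 2 fell (median 0.31): the receptors Fzd8 and Ptch1 rose by 0.95 and 0.49, the transcription factors Tcf7l1 and Lef1 by 1.02 and 0.63, and the target Axin2 by 0.37, while the secreted Dkk3 fell by 0.79 and the ligand Wnt7b by 0.71. Without ff-17, 13 of these genes rose, and without dcKO-13, 3 Notch genes fell.

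Genes of the cell cycle were higher in dcKO. Of 40 mitosis genes 34 rose and 0 fell (median 0.47; 33 and 0 without dcKO-2 and also with male libraries alone), and of 44 DNA replication genes 25 rose and 1 fell (median 0.27; 19 and 0 with male libraries alone). Promoter sequence is shown for 2 genes of each group, as both groups are known as targets of shared promoter motifs: sites for E2F factors in replication genes and the cell cycle homology region in mitosis genes. Each line gives 120 bases before the annotated start from RefSeq (GRCm38.p6), 5′ to 3′ on the gene's own strand, with matches in capitals. Hells, a chromatin remodeller, is at chr19:38930870-38930989 on the plus strand. Dtl, the other replication gene shown, is at chr1:191575545-191575664 on the minus strand. Mki67, the proliferation marker Ki-67, is at chr7:135716380-135716499 on the minus strand. Top2a, the mitotic topoisomerase, is at chr11:99024190-99024309 on the minus strand.
Hells: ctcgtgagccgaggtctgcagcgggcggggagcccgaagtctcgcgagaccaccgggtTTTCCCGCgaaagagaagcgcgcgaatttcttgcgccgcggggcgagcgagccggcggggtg
Dtl: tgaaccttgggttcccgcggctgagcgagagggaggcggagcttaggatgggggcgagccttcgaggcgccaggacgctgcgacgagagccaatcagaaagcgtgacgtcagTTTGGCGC
Mki67: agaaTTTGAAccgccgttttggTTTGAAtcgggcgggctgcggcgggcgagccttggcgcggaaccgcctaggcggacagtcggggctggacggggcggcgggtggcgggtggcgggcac
Top2a: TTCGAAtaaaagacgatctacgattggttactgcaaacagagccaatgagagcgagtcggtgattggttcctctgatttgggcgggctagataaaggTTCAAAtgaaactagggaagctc

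The E2F site was searched as TTTCCCGC, TTTGGCGC or TTTCGCGC on both strands of windows of 300 bases, 250 before to 50 after each start, and overlapping matches count as 1 gene. It was in 17 of the 35 replication genes with a window (48.6%) and in 2.12% of all 27025 symbols. Of tested genes with a window 3.74% held it, with 5.38% of those called higher and 3.20% of those called lower. Of the 17 replication genes with the site 14 were called, and of the 18 without it 9. The cell cycle homology region was searched as TTTGAA or TTCGAA on both strands and was in 26 of 33 mitosis genes (78.8%). It was in 21.7% of all symbols and 16.5% of tested genes with a window, shares set partly by its short length. Of the 26 genes with it 21 were called, and of the 7 without it 6. A match is a description of the sequence and not a measured binding site.

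Mki67 was at 54.7, 83.2, 64.4 and 68.3 CPM in ff and 111, 102, 109 and 99.7 CPM in dcKO, a rise of 0.63 (SE 0.11, adjusted p = 0.0024). Top2a was at 74.1, 99.3, 88.1 and 89.4 CPM in ff and 148, 130, 124.7 and 120 CPM in dcKO, a rise of 0.56. In both, ff-7 was lowest and no ff library reached the dcKO range. Kif20a, a cytokinesis kinesin, had the largest rise of its list at 1.08, from 16.2, 18.3, 19.4 and 23.5 CPM to 48.8, 38.0, 39.1 and 39.7 CPM. Among replication genes, Dtl was at 10.8, 12.6, 12.6 and 12.5 CPM in ff and 22.7, 24.2, 21 and 21.4 CPM in dcKO, a rise of 0.88, and Hells rose by 0.73 from 12.4, 16.2, 13.4 and 14.2 CPM to 25.8, 23.6, 22 and 22.8 CPM. Of the replicative helicase, Mcm5 rose by 0.72 and Mcm6 by 0.20, the sliding clamp Pcna rose by 0.16, and Chaf1b, a histone chaperone subunit, fell by 0.25 while its partner Chaf1a rose by 0.58.

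Of 36 DNA damage and recombination genes, 15 rose and 1 fell (median 0.23; 13 and 1 with male libraries alone, and 9 higher without ff-7). Rad54l, a recombination motor, rose by 1.13, Brca1 by 0.56 and the checkpoint kinase Chek1 by 0.47, while Xrcc5, the Ku80 subunit of end joining, fell by 0.29. Many of these genes are themselves transcribed in S phase. Replication-dependent histone genes, near-identical copies whose transcripts mostly lack a poly(A) tail, were low throughout: 19 of 51 symbols were tested, 8 rose and 0 fell (median 1.05). H3c3 was at 0.0691, 0.051, 0.093 and 0.15 CPM in ff and 2.08, 0.913, 0.581 and 0.937 CPM in dcKO, a rise of 3.46, highest in the shallow library dcKO-2. With male libraries alone 4 of these 19 genes rose.

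p53 target genes were called in both directions, the higher ones at near the share of all tested genes (15.6% higher, 16.6% lower). Of 38, 11 fell and 6 rose (median −0.06), but on the log2(TPM + 1) scale 2 fell and 8 rose with a median of 0.06; 7 fell without dcKO-13. Bbc3 (Puma), a direct p53 target that triggers apoptosis, was at 27.5, 25.2, 28.3 and 24.9 CPM in ff and 17, 15.5, 15 and 16.5 CPM in dcKO, a fall of 0.73 (SE 0.07, adjusted p = 1.6e-05). Aen, a p53-induced exonuclease, was at 79.7, 75.2, 81.8 and 77.9 CPM in ff and 55.2, 55.8, 54.3 and 57.5 CPM in dcKO, a fall of 0.50. Neither gene's groups overlapped. Ccng1 fell by 0.27, Trp53inp1 by 0.29 and Bax, the mitochondrial pore former, by 0.22. Pmaip1 (Noxa) went the other way, from 1.43, 1.82, 1.04 and 1.71 CPM to 3.52, 3.33, 3.12 and 2.52 CPM, a rise of 1.03 (adjusted p = 0.0022); Sesn2 rose by 0.77 and Btg2 by 0.50, and both are also induced by stress pathways other than p53. Cdkn1a (p21) at 0.15 (adjusted p = 0.082) and Mdm2 at 0.12 (adjusted p = 0.091), the classic targets in arrest and feedback, did not pass. Among 29 cell death genes 9 fell and 6 rose (median −0.04, and 0.08 with 7 higher and 4 lower on the log2(TPM + 1) scale): the initiator caspase Casp9 fell by 0.35 and the BH3-only gene Bid by 0.46, and Bcl2l11 (Bim), also BH3-only, rose by 0.35; 3 rose without dcKO-12.

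Cholesterol synthesis had the highest share of lower genes of the 43 lists. Of 28 genes, 26 fell and 1 rose (median −0.57; 24 and 1 with male libraries alone), and their summed level was 2931 to 3209 TPM in ff and 1917 to 2125 TPM in dcKO. The fall ran from the first to the last steps of the pathway: Hmgcs1 at the entry by 0.89, Mvd and Fdps in the isoprenoid steps by 1.05 and 1.09, Fdft1 and Sqle at the squalene steps by 0.90 and 0.83, and Msmo1 and Dhcr7 in the later sterol steps by 0.82 and 0.49. Mvd was at 70.1, 61.1, 72.3 and 62.5 CPM in ff and 30.6, 33.2, 33.4 and 30.8 CPM in dcKO (adjusted p = 1.3e-06). Sqle was at 248, 245, 234 and 228 CPM in ff and 132, 134, 142 and 131 CPM in dcKO. Both groups were narrow and well apart. Srebf2, the factor that drives the pathway, fell by 0.42, while Lbr, a sterol reductase that is also a lamin receptor of the nuclear envelope, rose by 0.36. Of 22 fatty acid genes 14 fell and 0 rose (median −0.34), including Acaca, the committed step, by 0.72, Fasn by 0.50 and Elovl6 by 0.58. The sterol response element core TCACCCCAC, on either strand, was in the window of 1 of 20 cholesterol genes (Hmgcs1), 5.0% against 0.614% of all symbols; these windows do not cover other sites of the promoter.

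Genes of the ventral telencephalon, the source of inhibitory neurons and of the striatum, were higher in dcKO. Of 30 ventral progenitor and transcription factor genes 25 rose and 1 fell (median 0.74), with a summed level of 983 to 1159 TPM in ff and 1612 to 1893 TPM in dcKO; with male libraries alone 21 rose and 1 fell. Six3 rose by 1.09, Isl1, a factor of striatal neurons, by 0.96, Dlx1 by 0.92, Dlx2 by 0.71 and Nkx2-1 by 0.78, and Olig2 fell by 0.32. Of 29 GABA and interneuron genes, 22 rose and 4 fell (median 0.55). Slc32a1, the vesicular GABA transporter, was at 58.7, 55.7, 50.6 and 56.0 CPM in ff and 108, 101, 98.0 and 102 CPM in dcKO, a rise of 0.89. Gad2, a GABA-synthesizing enzyme, was at 72.0, 78.9, 67.3 and 71.5 CPM in ff and 135, 121, 142 and 116 CPM in dcKO, a rise of 0.83. The lowest dcKO library exceeded the highest ff library for both. Gad1 rose by 0.62 and the migrating interneuron factor Lhx6 by 0.55, while Satb1 fell by 0.59 and the peptide gene Cck by 0.91. Of 25 striatal projection neuron genes, 15 rose and 0 fell (median 0.45; 11 and 2 with male libraries alone): Tac1 rose by 0.90, Adora2a by 0.89, Drd2 by 0.83 and Penk by 0.80. Ventral, interneuron and striatal genes moved together with the fall of the projection neuron genes. The part in these results of striatal tissue in the dissection, or of the smaller share of projection neuron RNA, was not tested.

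Cajal-Retzius cells of the outermost layer secrete reelin; 10 of 17 of their genes rose and 2 fell (median 0.48). Reln was at 256, 304, 260 and 259 CPM in ff and 385, 404, 435 and 383 CPM in dcKO, a rise of 0.58, and Nhlh1 rose by 1.00, Lhx5 by 0.74 and Ebf3 by 1.02, while Calb2 fell by 0.56. Trp73, named above with the p53 family, is a marker of these cells too. Of 22 thalamus and diencephalon genes 9 rose and 3 fell (median 0.37), including Tcf7l2 by 0.75 and Gbx2 by 0.79, against a fall of 2.68 for the peptide gene Tac2. Hippocampal and hem genes moved both ways, with 6 of 24 higher and 7 lower (median −0.12, and 0.01 on the log2(TPM + 1) scale): Dmrt3 rose by 1.29 and Dmrta2 by 1.03, factors of dorsomedial progenitors, and Kctd4 fell by 1.23, Rspo2 by 0.92 and Mpped1 by 0.82.

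Among glial genes, 11 of 30 astrocyte genes rose and 1 fell (median 0.19). With male libraries alone 6 rose and 3 fell, and 7 rose without ff-8 or dcKO-13. Fgfr3 rose by 0.72, the lipoprotein Apoe by 0.63 and the water channel Aqp4 by 0.50, while Aldh1l1 at −0.00 and Gfap at −0.05 did not pass. Of 22 oligodendrocyte lineage genes, 5 rose and 4 fell (median 0.23), the fallers including Olig1, Olig2 and the myelin gene Mbp by 0.24, 0.32 and 0.24.

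Outside the Emx1 lineage, 12 of 24 microglia genes rose and 0 fell (median 0.39), and 11 and 0 with male libraries alone. The summed level of the microglia genes was 249 to 324 TPM in ff and 364 to 443 TPM in dcKO. The higher count was 6 without ff-7, ff-8 or dcKO-13 and 7 without dcKO-3. The complement gene C1qb was at 11.3, 11.8, 11.9 and 15.1 CPM in ff and 19.2, 20.7, 20.6 and 22.3 CPM in dcKO, a rise of 0.73, and Csf1r, the receptor that microglia need to survive, rose by 0.52. Of 25 endothelial genes 3 rose and 1 fell (median 0.19; 0 higher without ff-17, 1 without ff-7 or ff-8 and 7 without ff-18), the faller being the thyroid hormone transporter Slco1c1 by 0.49. Of 14 pericyte genes 2 rose and 0 fell (median 0.16; 1 to 5 higher with single libraries left out, the most without ff-18), and of 24 meningeal genes 6 rose and 0 fell (median 0.36; 15 and 0 with male libraries alone; 2 to 13 higher with single libraries left out, the most without ff-18). Meningeal sums overlapped between groups, at 1004 to 1532 TPM in ff and 1266 to 1915 TPM in dcKO. Choroid plexus genes had 0 of 25 higher and 1 lower, Cldn3 by 2.33, with sums of 1591 to 2738 TPM in ff and 89.5 (dcKO-12) to 3545 TPM in dcKO; without dcKO-12, 4 rose and 1 fell (median 0.43). Of 11 erythroid genes 1, Klf1, rose by 1.68 and 0 fell; 4 were lower with the DESeq2 Wald test and with 1 fit of all 14 libraries, 3 were higher without dcKO-12 and 0 without dcKO-3. The summed level of 15 erythroid genes, tested or not, was lower in every dcKO library than in every ff library.

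Interferon-stimulated genes, which encode antiviral and antigen presentation proteins, had the highest share of higher genes of the 43 lists. Of 36, 31 rose and 0 fell (median 1.10); of the same 36 genes 26 rose without dcKO-2, 34 without dcKO-2 and dcKO-12, and 11 with male libraries alone, and 20, 17 and 18 of the list rose without ff-7, ff-8 and ff-17, and 26 without dcKO-3. The summed level covers 39 genes of the list, tested or not. It was 198, 166, 181 and 215 TPM in ff and 327, 461, 259 and 361 TPM in dcKO. The groups thus did not overlap but differed most between dcKO libraries. Xaf1, an interferon-induced inhibitor of XIAP, was at 0.605, 0.484, 0.837 and 0.507 CPM in ff and 1.76, 3.55, 1.34 and 1.68 CPM in dcKO, a rise of 1.80. Oasl2, an oligoadenylate synthetase-like gene, was at 2.51, 2.26, 2.57 and 2.40 CPM in ff and 4.0, 7.46, 3.96 and 4.94 CPM in dcKO, a rise of 1.09 (adjusted p = 0.0011). In both, dcKO-3 was highest by a wide margin. Ifit1, with near copies, was at 0.48, 10.3, 0.727 and 2.34 CPM in dcKO and overlapped the ff range of 0.166 to 0.525 CPM. Irf9, a component of the interferon-activated complex, rose by 0.48, and the class I genes H2-K1 and B2m by 1.01 and 0.52. The summed level of microglia genes was also higher in dcKO, at 364, 431, 382 and 443 TPM. The dcKO libraries did not rank in the same order for these sums as for the interferon sums. The part of microglia in the interferon list was not tested.

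**Figure D5:**
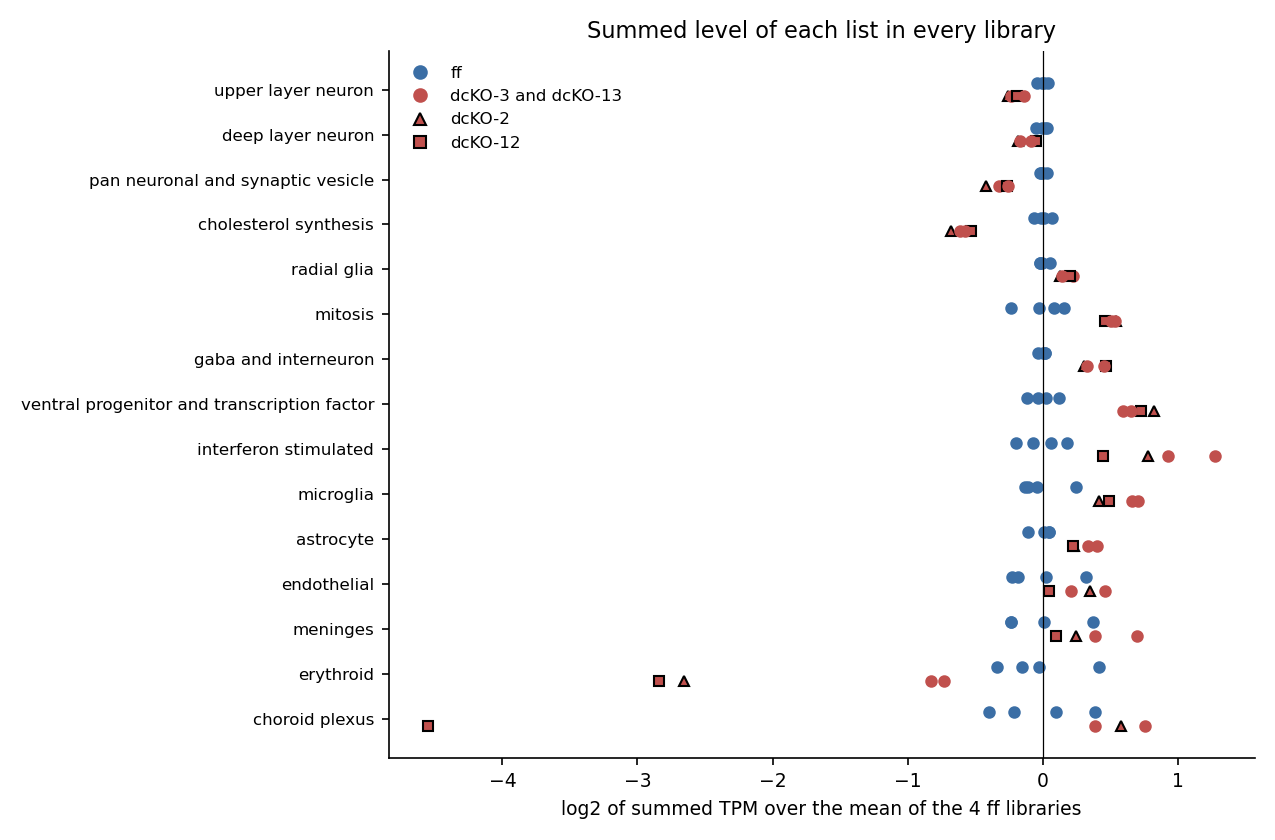
Summed TPM of 15 lists in each library as a log2 ratio to the mean of the 4 ff libraries (ff blue; dcKO red, with dcKO-2 as triangles and dcKO-12 as squares). dcKO-12 stands apart for choroid plexus (89.5 TPM), dcKO-2 and dcKO-12 are lowest for erythroid genes, and the interferon sums spread from 259 to 461 TPM over the dcKO libraries.

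Stress and metabolic genes were mixed. Of 26 genes of the integrated stress response and serine synthesis, 12 rose and 2 fell (median 0.26). Atf5 was at 24.8, 27.7, 32.2 and 29.5 CPM in ff and 66.4, 55.2, 51.3 and 53.8 CPM in dcKO, a rise of 0.97; Trib3 rose by 1.42, Psat1, an enzyme of serine synthesis, by 0.60, Ddit3 (Chop) by 0.49 and Atf4 by 0.29, while Xbp1, a factor of the unfolded protein response, fell by 0.44. Of the immediate-early genes counted above, Fosb, Npas4 and Jun rose by 0.92, 0.82 and 0.59 and the growth factor Bdnf fell by 0.55; 3 of the list fell without ff-7. Of 29 glycolysis and hypoxia genes, 7 rose and 4 fell (median 0.00, of either sign by scaling), among them a change of hexokinases: Hk1, the form of differentiated neurons, fell by 0.48 and Hk2 rose by 0.83. Of 37 nuclear genes of oxidative phosphorylation, 13 fell and 0 rose (median −0.18), Ndufs4 of complex I by 0.60 (20 lower without dcKO-3), and of 13 mitochondrially encoded genes 0 were called (median 0.16). Of 83 cytosolic ribosomal protein genes, which have many near-identical copies, 28 fell and 0 rose (median −0.20), but 12 were lower without dcKO-2 and dcKO-12, 17 without dcKO-13, 18 without dcKO-12 and 63 without dcKO-3; Rps15a fell by 0.50 and Rpl5 by 0.45.

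Some of the largest changes lay outside these lists. Peg10, an imprinted retrotransposon-derived gene, was at 63.2, 75.6, 64.4 and 72.5 CPM in ff and 156, 143, 140 and 130 CPM in dcKO, a rise of 1.04. Itprid1 rose by 2.14, and Usp43, a deubiquitinase gene, fell by 2.22.

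Whether the E18.5 differences were those of the earlier stage was tested as a genotype by stage interaction over all 14 libraries, for 7 marker genes. Across all genes 3195 of 19327 (16.5%) had an E18.5 difference unlike the E12.5 one. A test of the 6 E12.5 libraries alone called 34 of 17853 genes (0.19%). That test had fewer libraries, 1 of them shallow, so its count does not measure how small the E12.5 differences were. Mki67 differed by −0.68 at E12.5 and 0.63 at E18.5, an interaction of 1.27 (adjusted p = 0.00021), and Top2a by −0.41 and 0.56 (interaction 0.93). Eomes differed by −0.74 at E12.5 and 0.32 at E18.5 (interaction 1.02, adjusted p = 3.2e-05), and Bcl11b by −0.47 and 0.45 (interaction 0.88, adjusted p = 0.0014). Pax6 (−0.03 and 0.95, interaction 0.93) and Gad2 (0.02 and 0.83, interaction 0.76) were near 0 at E12.5. At E12.5 alone, Mki67 (adjusted p = 0.048), Eomes (adjusted p = 0.014) and Tbr1 (adjusted p = 0.047) passed, and Top2a (adjusted p = 0.098), Bcl11b (adjusted p = 0.097), Pax6 and Gad2 did not. Tbr1, at −0.79 and −0.51, had an interaction of 0.24 that did not pass (adjusted p = 0.38). The E12.5 ff library 9, at 4.92 M counts, is the other shallow library of the series.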

How the data were processed

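Polyadenylated RNA of E18.5 cerebral cortex was sequenced from strand-specific libraries, per the labels' protocols. Per the submitters' processing notes Trim Galore, STAR, RSEM and DESeq2 were used; versions, genome build, annotation and the strand setting are not given in the sources used here. The deposited gene tables hold the authors' RSEM expected counts and, separately, the authors' TPM values; the authors' deposited comparison table holds log2 fold changes and p-values.

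Expected counts were rounded and tested in R 4.3.3 with edgeR 4.0.16 (TMM, filterByExpr, quasi-likelihood F-test, Benjamini-Hochberg over all genes tested, 0.05). Fold changes are log2 and come from the edgeR fit. A prior count of 2 was used for CPM on the log scale, in the principal components and the length offset, and not for the reported fold changes. Effective length (count divided by TPM) was tested with limma 3.58.1 after a spline correction with 5 degrees of freedom, for genes with TPM of at least 5 and counts of at least 50 in every library. Gene symbols came from the deposited E12.5 table, neighbours, classes and exon overlaps from GENCODE M21 by gene ID, and promoter sequences from RefSeq (GRCm38.p6).

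Genes were named by rule: the targeted genes and their relatives; up to 12 in each direction with the lowest p, no overlap between groups, a log2 change of 1 or more and a mean of 5 CPM or more where higher; up to 4 called members of each list and 1 of its rarer direction; genes with a length shift; called neighbours; and the genes of the stage test. Some genes are not reported here. Other list members are examples chosen after their values were seen. Members and lists were chosen with earlier results of these data known.

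On simulated counts for the E18.5 comparison, the calls recovered 65% of 100 genes set to 1.5-fold and 71% of 100 set to 2-fold. Among 17974 genes 15 calls were false, a larger share of the simulated calls than the 0.05 of the threshold. Only those genes were changed in the simulation, whereas 5779 genes were called in the data. For effective length the shares were 39% at a shift of 0.1 and 78% at 0.3, with 11 false calls among 10466 genes. These simulated calls used the adjusted p alone. The reported calls also needed a shift of at least 0.1, so the shares are not those of the reported rule. Alternatives covered normalization, tool (DESeq2 1.42.0, limma-voom), filter, pseudocount, sex, length offset and left-out libraries.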

Additional observations from a re-analysis of the deposited data

Results flagged for a closer look

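Among 408 groups of 4 libraries (204 named genes), 19 had a single library far from the other 3 relative to the group's range (4.66%), close to the 1 in 20 that chance gives: 5 were dcKO-2, 2 dcKO-12, 1 dcKO-13 and 11 ff libraries. In dcKO-2, Zbtb18 was at 403 CPM (nearest dcKO library 456), Mcm3 at 37.1 (42.2), Kif20a at 48.8 (39.7), Mpped1 at 368 (465) and Ndrg1 at 75.9 (92.5). In dcKO-12, Gad1 was at 196 CPM (177) and Apoe at 248 (308), and in dcKO-13 Jun was at 85.1 (79.3). In ff-18, Met was at 36.9 CPM (nearest ff library 43.3), Sv2b at 52.8 (61.5), Zic5 at 14.9 (10.7), C1qb at 15.1 (11.9) and the meningeal gene Ogn at 33.3 (25.8). In ff-8, Nrxn3 was at 83.0 CPM (73.0) and Reln at 304 (260). In ff-7, Dtl was at 10.8 CPM (12.5), and in ff-17 Gad1 was at 109 (120), Cacna2d2 at 61.0 (62.8) and Rps15a at 380 (344).

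The difference between dcKO and ff was unlike at the 2 stages in 6 of the 7 genes named for it (E18.5 minus E12.5, edgeR interaction): 1.27 for Mki67, 0.93 for Top2a, 0.93 for Pax6, 1.02 for Eomes, 0.88 for Bcl11b and 0.76 for Gad2. The stages differ in the tissue taken, telencephalon at E12.5 and cerebral cortex at E18.5, so stage and tissue cannot be told apart.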

How the results depend on the processing

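The number of genes called was 4417 to 6747 over the other normalizations, tools, filters, covariates and left-out libraries, against 5779, and 1512 with a 1.5-fold minimum (1074 higher, 438 lower). Higher calls numbered 1862 with male libraries alone, and lower calls 1120 and 1112 with limma on log2(TPM + 1) and log2(TPM + 0.1). Effective length shifts numbered 12 with higher minimums (TPM 20, 200 counts), 1 with median centring and 1 to 8 with single libraries left out. The interaction called 1690 to 3307 genes with single libraries left out, 1733 without E12.5 dcKO replicate 6 and 1690 without replicate 10. Of 199 called genes among those named, 184 (both TPM scales) to 199 were also called under each setting. Directions changed for 5 results, and the cause was not tested: Sbno1 was 0.34 and 0.35 on the TPM scales, called as higher (limma adjusted p = 0.041 and 0.039), and −0.0609 to 0.004161 with single libraries left out; Trp63 was 0.33 with sex as a covariate, 0.27 with male libraries alone and −1.12 to 0.10 with single libraries left out (0.10 without ff-8); Ccl27a was −0.005295 with the covariate and −0.03548 with male libraries; Pitpnm2, called as lower in the reported test, was 0.03403 and 0.03473 on the TPM scales; and the effective length of Emx1 was −0.003724 to 0.01314 with single libraries left out. No paired analysis was possible because the 2 groups share no replicate number. Leaving out 1 library changes the number of libraries as well as the values. At 5.98 M counts dcKO-2 limits genes under about 1 CPM, where 275 of the calls lie.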

Other observations

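Classes of RNA gene were looked at after the values of single genes had been seen. Of 501 antisense genes tested, 109 were higher in dcKO (21.8%) and 7 lower (1.4%), with a median log2 fold change of 0.53, whereas of 15044 protein-coding genes 15.2% were higher and 18.9% lower, with a median of 0.00. Processed transcripts (30.1% higher, 3.64% lower of 302) and unclassified transcripts (24.3% and 3.96% of 379) were tilted the same way, long intergenic RNAs less so (18% and 8.44% of 557), and processed pseudogenes not (1.85% and 4.53% of 486). Antisense genes as a whole held 0.139% to 0.146% of the counts in the 4 ff libraries, 0.180% to 0.187% in dcKO-3, dcKO-12 and dcKO-13, and 0.482% in dcKO-2. Without dcKO-2, 112 antisense genes were higher and 15 lower (median 0.33), and with male libraries alone 59 and 5. At E12.5 the antisense share was 0.144% and 0.145% in 2 ff libraries, 0.407% in the shallow ff library 9, and 0.162% to 0.163% in the dcKO libraries. The share of mt-Nd6 among mt-Nd5 and mt-Nd6 counts was 18.4% in that E12.5 library, so the 2 shallow libraries of the series, of opposite genotype, resemble each other in both measures. The direction of antisense genes in dcKO was thus present in the 3 deep dcKO libraries, and its cause was not tested.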
